A study of Mus musculus with 13 samples.

Results

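The genes described here are 40 mouse genes subject to genomic imprinting, that is, genes of which the copy inherited from a given parent is expressed and the other is silent in at least some tissues. They were chosen by symbol, and each of the 40 was found once among the 32106 protein-coding and lncRNA genes of the GENCODE annotation used. Of the 40, 32 were protein-coding and 8 were lncRNA genes (H19, Kcnq1ot1, Airn, Meg3, Rian, Mirg, Nespas and Peg13), and they lay on 10 chromosomes, with 15 of them on chromosome 7. For each member, the listed peaks of 2 histone marks, H3K4me3 (K4) and H3K27me3 (K27), were counted within 2 kb of any of its transcription start sites (TSS), and listed OLIG2 peaks were counted in the gene and 5 kb upstream.

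The study profiled chromatin by ChIP-Seq along the oligodendrocyte lineage in unedited, untreated mouse cells. Neural stem cells (NSCs) were a purchased, passaged culture from embryonic day 14.5 cortex, kept in EGF and FGF, whose strain is CD-1 in the growth protocol and C57BL/6 in the strain field, while oligodendrocyte precursor cells (OPCs) and newly formed oligodendrocytes (NFOs) were immunopanned, on PDGFRα and GalC respectively, from C57BL/6 brains of both sexes at postnatal day 7. The lists used here cover K4 and K27 at all 3 stages and OLIG2, the basic helix-loop-helix factor that specifies the lineage, in OPCs and NFOs, with 1 library for each target and stage, and OLIG2 in NSCs was not analysed here. No value therefore has a replicate error, no difference between stages could be tested, and everything below describes these libraries.

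Imprinted genes sit in clusters, each governed by an imprinting control region whose DNA methylation is set in the egg or the sperm and then kept in all later cells. Where this germline differentially methylated region (DMR) covers a promoter, the unmethylated allele typically carries H3K4me3, the mark of active or poised promoters. The silent copies of genes further out in a cluster, and the domains coated by long noncoding RNAs such as Kcnq1ot1 and Airn, are often held by H3K27me3, which Polycomb complexes deposit. The libraries were read without regard to allele, so overlapping K4 and K27 peaks at an imprinted gene can lie on different alleles, on the same allele or in different cells, and these cannot be told apart here.

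The lists carried the marks that the titles of the libraries name, although the antibody field of the labels names the other mark for each histone library. Of 39 Hox cluster genes, which Polycomb silences in forebrain, 39 had a K27 peak at every stage, and between 50.2% and 74.8% of K4 peaks but between 11.9% and 27.2% of K27 peaks lay within 2 kb of a TSS. The OPC markers Pdgfra, Cspg4, Olig1, Olig2 and Sox10 had a K4 peak in 5 of 5 cases in NSCs and OPCs and 4 of 5 in NFOs. The NSC markers Nes, Sox2, Pax6, Hes5 and Vim had one in 5 of 5 cases in NSCs and OPCs and 3 of 5 in NFOs. A listed K4 peak at these markers therefore did not tell NSCs from OPCs. Of 7 NFO markers 3 had a K4 peak in NSCs and OPCs, but 1, Cnp, had it in NFOs, and Mog and Mag had none at any stage. Neuronal markers had K4 peaks in 4 of 4 cases in NSCs and OPCs and 3 of 4 in NFOs, against 1 of 4 microglial markers in OPCs, 1 of 3 endothelial markers at each stage and 1 of 3 astrocyte markers in NSCs. The part of other cell types in the results below was not tested. Reads were single-end for NSCs but paired-end for both other stages, and the lists give no read totals, so peak widths and heights are compared within a library.

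Most imprinted genes carried K4 at the promoter, and K27 and OLIG2 were listed at a larger share of them than of all genes. A K4 peak was listed at 35 of the 40 members in NSCs, where 52.2% of all genes had one, at 31 in OPCs (48.6% of all genes) and at 26 in NFOs (35.1% of all genes). As shares of the members these were 87.5%, 77.5% and 65.0%. A K27 peak was listed at 14 members in NSCs (13.4% of all genes), 15 in OPCs (14.8% of all genes) and 14 in NFOs (8.5% of all genes), or 35.0%, 37.5% and 35.0% of the members. The marks overlapped at 12 members in NSCs (7.19% of all genes), 6 in OPCs (4.64% of all genes) and 5 in NFOs (2.63% of all genes). OLIG2 was listed at 13 members in OPCs (13.8% of all genes) and at 18 in NFOs (24.1% of all genes).

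**Figure D1:**
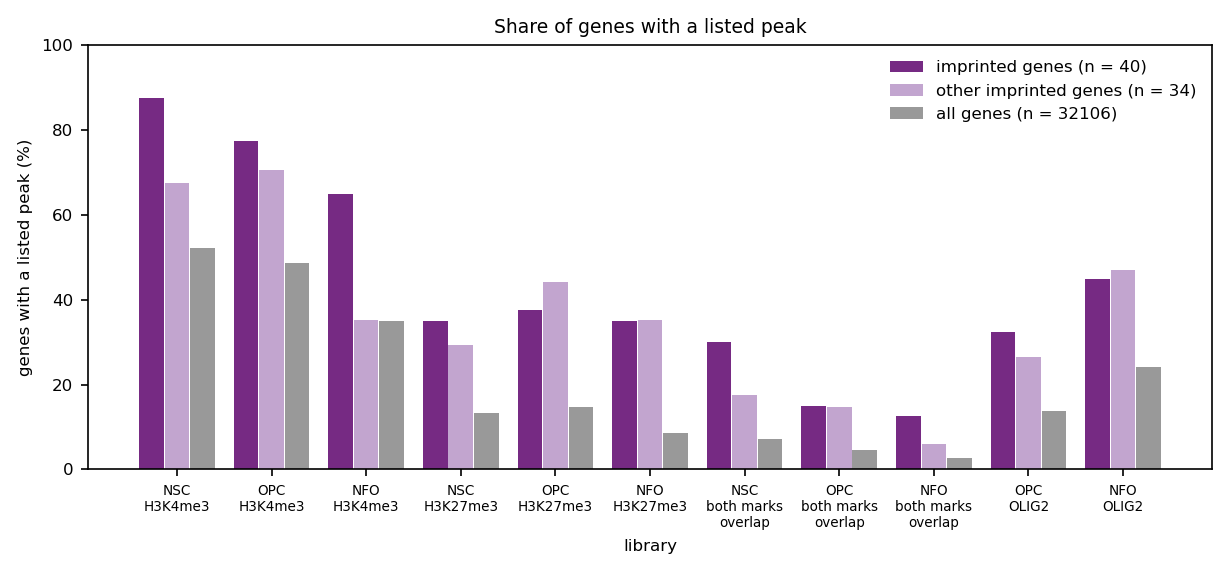
Bars give the percentage of genes with a listed peak (y axis) in each library, or with overlapping K4 and K27 peaks (x axis), for the 40 imprinted genes, 34 further imprinted genes that are no members, and all 32106 genes. For the 40 members the bar stood above that of all genes in every column, from 87.5% against 52.2% for K4 in NSCs to 12.5% against 2.63% for overlapping marks in NFOs.

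Several of the members share peaks or sit inside each other, so they are not independent. Peg3 and Usp29 shared a K4 peak over their divergent promoters, as did Sgce and Peg10, Nnat lies within Blcap and Peg13 within Trappc9, Nespas overlaps the 5′ part of Gnas, and Kcnq1ot1 and Airn run antisense to Kcnq1 and Igf2r. The 56 member hits of the NSC K4 list came from 50 distinct peaks, the 37 of the OPC K27 list from 33, and the 29 of the NFO OLIG2 list from 25. The members also had more annotated TSS than other genes, with a median of 5.5 against 2.0, which gives them more room for a peak. With the 5′ end of the gene record as the sole TSS, K27 was listed at 9, 12 and 11 members at the NSC, OPC and NFO stages, against 9.95%, 12.6% and 7.39% of all genes.

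The 19 members with a germline DMR at a promoter were marked by K4 almost throughout. K4 was listed at 19, 18 and 17 of the 19 in the NSC, OPC and NFO lists, and at 16 of them at all 3 stages. The exceptions were Mcts2, a retrogene in an intron of H13, which had no K4 peak in OPCs, and Snrpn, which encodes the splicing protein SmN, and Airn, which had none in NFOs. Of the 21 members without such a DMR, 16, 13 and 9 had K4 in the NSC, OPC and NFO lists, and 9 had it at all 3 stages. Over all 40 members, 25 had K4 at all 3 stages, against 33.1% of all genes. Of the 19, 11 had K4 and no K27 at every stage: Kcnq1ot1, Peg3, Usp29, Nnat, Zrsr1, Impact, Sgce, Peg10, Peg13, Nap1l5 and Inpp5f. Among all genes 23.9% had K4 alone at all 3 stages, and among the members 15 of 40 did, the other 4 being Ndn, Copg2, Igf2r and Blcap.

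The zinc-finger protein ZFP57 protects germline imprints by binding the methylated hexamer TGCCGC, and RefSeq promoter windows were searched for it on both strands (TGCCGC or GCGGCA). The RefSeq table (GRCm38.p6, 250 bases before to 50 after each start) held 31 of the 40 members, in 45 windows, while H19, Kcnq1, Rtl1, Nespas, Impact, Sgce, Peg10, Peg13 and Trappc9 were not in it. The hexamer was present in 8 of 23 windows (34.8%) of members with a germline DMR, in 4 of 22 windows (18.2%) of the other members, and in 11.6% of all 32851 windows. The same windows were richer in CpG, with a median of 16 CpG in those of the germline DMR members, 12 in the other members and 7.0 in all windows. Windows of a gene can overlap, so they are not independent. Those of Mest that start at 30737800 and 30737803 hold the same hexamer matches and are counted separately. The upstream bases of a promoter of Mest (a hydrolase-fold protein) and of Nap1l5 (a nucleosome assembly protein family member), both with a germline DMR, and of the noncoding RNA Meg3, which has none of its own, are printed from 5′ to 3′ because K4 peaks were listed over or beside them and they show the hexamer, in capitals.
Mest, chr6:30737800-30738049, plus strand: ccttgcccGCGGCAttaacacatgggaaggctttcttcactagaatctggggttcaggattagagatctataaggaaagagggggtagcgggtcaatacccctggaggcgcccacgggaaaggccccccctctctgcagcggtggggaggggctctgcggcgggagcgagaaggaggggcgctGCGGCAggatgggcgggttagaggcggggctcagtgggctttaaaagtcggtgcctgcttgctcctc
Nap1l5, chr6:58907127-58907376, minus strand: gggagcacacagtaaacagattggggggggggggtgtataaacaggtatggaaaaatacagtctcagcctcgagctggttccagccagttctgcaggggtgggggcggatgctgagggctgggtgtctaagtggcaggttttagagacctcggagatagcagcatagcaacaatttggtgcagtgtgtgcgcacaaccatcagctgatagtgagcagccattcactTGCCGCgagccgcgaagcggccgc
Meg3, chr12:109540746-109540995, plus strand: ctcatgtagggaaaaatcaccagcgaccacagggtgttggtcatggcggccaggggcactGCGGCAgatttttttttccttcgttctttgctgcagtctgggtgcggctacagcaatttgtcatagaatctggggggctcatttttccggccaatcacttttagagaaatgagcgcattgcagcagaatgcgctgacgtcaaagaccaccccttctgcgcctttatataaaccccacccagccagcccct
Mest held GCGGCA at 2 places in these bases, and Nap1l5 and Meg3 held 1 match each. A match describes the letters and does not show that ZFP57 was bound in these cells.

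The highest K4 peaks of the members ranked low in the NSC and OPC lists and in the middle of the NFO list. For each gene the highest fold enrichment among its K4 peaks was ranked among all genes with a K4 peak in the same library, and the median member stood at percentiles 23.4, 29.9 and 50.8 in the NSC, OPC and NFO lists. In NSCs 24 of the 35 members with K4 were below percentile 50, in OPCs 22 of 31 and in NFOs 13 of 26. The median highest fold was 6.18 at members against 8.34 at all marked genes in NSCs, 5.52 against 6.46 in OPCs, and 5.08 against 5.03 in NFOs. The widest K4 peak had a median width of 2450 bp at members and 2140 bp at all marked genes in NSCs, 1700 against 1370 bp in OPCs, and 661 against 570 bp in NFOs, a comparison that the larger number of TSS per member touches.

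**Figure D2:**
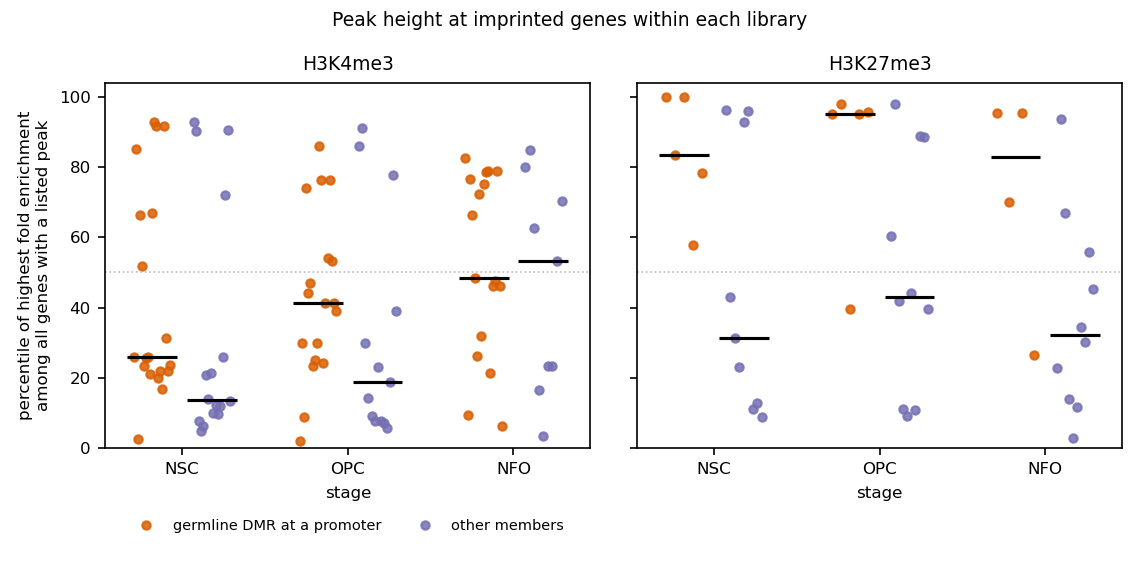
Each point is a member with a listed peak, placed by the percentile (y axis) of its highest fold enrichment among all genes with a peak in that library, for K4 (left) and K27 (right) at the 3 stages (x axis), with members that have a germline DMR at a promoter in orange, the others in violet and black bars at the medians. In NSCs and OPCs most K4 points lay below percentile 50. K27 points of germline DMR members had medians of 83.4, 95.2 and 82.8 at the NSC, OPC and NFO stages (5, 5 and 4 genes, of which Gnas and Nespas share their highest peak). Those of the other members had 31.2, 43.0 and 32.2 (9, 10 and 10 genes). In OPCs the highest K27 peaks of Plagl1 (231 bp), Gnas and Nespas (322 bp) and Grb10 (505 bp) were narrow. So was that of Dlk1 (272 bp), one of the other members. The highest peak of Gnas and Nespas was also narrow in NSCs (503 bp) and NFOs (424 bp), while that of Grb10 spanned 1353 and 2292 bp there. Whether signal at such narrow places comes from the target was not tested.

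Members with a germline DMR at a promoter differed in K4 height, given here for the highest K4 peak. The shared Peg3 and Usp29 promoter, which serves a zinc-finger protein and a ubiquitin protease, had K4 folds of 6.02, 6.06 and 4.78 in the NSC, OPC and NFO lists, from peaks of 4723, 4767 and 1186 bp. Kcnq1ot1 had 6.18, 6.32 and 4.93, and Zrsr1, a retrogene related to a splicing factor, had 6.19, 5.95 and 3.25. Peg13, a noncoding RNA in an intron of Trappc9, had folds of 5.78, 5.24 and 3.81, the last from a narrow peak beside one at 3.71, and its OPC peak of 5857 bp was the widest K4 peak at any member. Nap1l5 had 5.91, 5.28 and 4.18. In the NSC list these promoters sat between percentiles 19.9 and 23.6.

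Higher K4 peaks stood at the shared promoter of Sgce (a dystrophin-associated glycoprotein) and Peg10 (a retrotransposon-derived protein), with folds of 12.5, 8.05 and 9.42 in NSCs, OPCs and NFOs. Nnat, which encodes the small membrane protein neuronatin, had 12.8, 9.19 and 9.29, and its NSC value, shared with Blcap around it, was the highest K4 fold of any member there, at percentile 93.0. Impact, a regulator of translation under stress, had K4 at a pair of TSS, at 9.46, 7.88 and 7.57 at the upstream TSS and 8.61, 6.08 and 8.87 at the downstream TSS. The phosphatase gene Inpp5f had 8.47 and 6.19 in NSCs and OPCs at its upstream promoter, where no NFO peak was listed, and 7.24, 5.59 and 6.71 at a downstream promoter. The maternally expressed Copg2, a coatomer subunit that neighbours Mest, had 12.2, 10.3 and 11.8, and Ube3a, the ubiquitin ligase that is maternally expressed in neurons, had 12.3, 8.2 and 7.41.

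**Figure D3:**
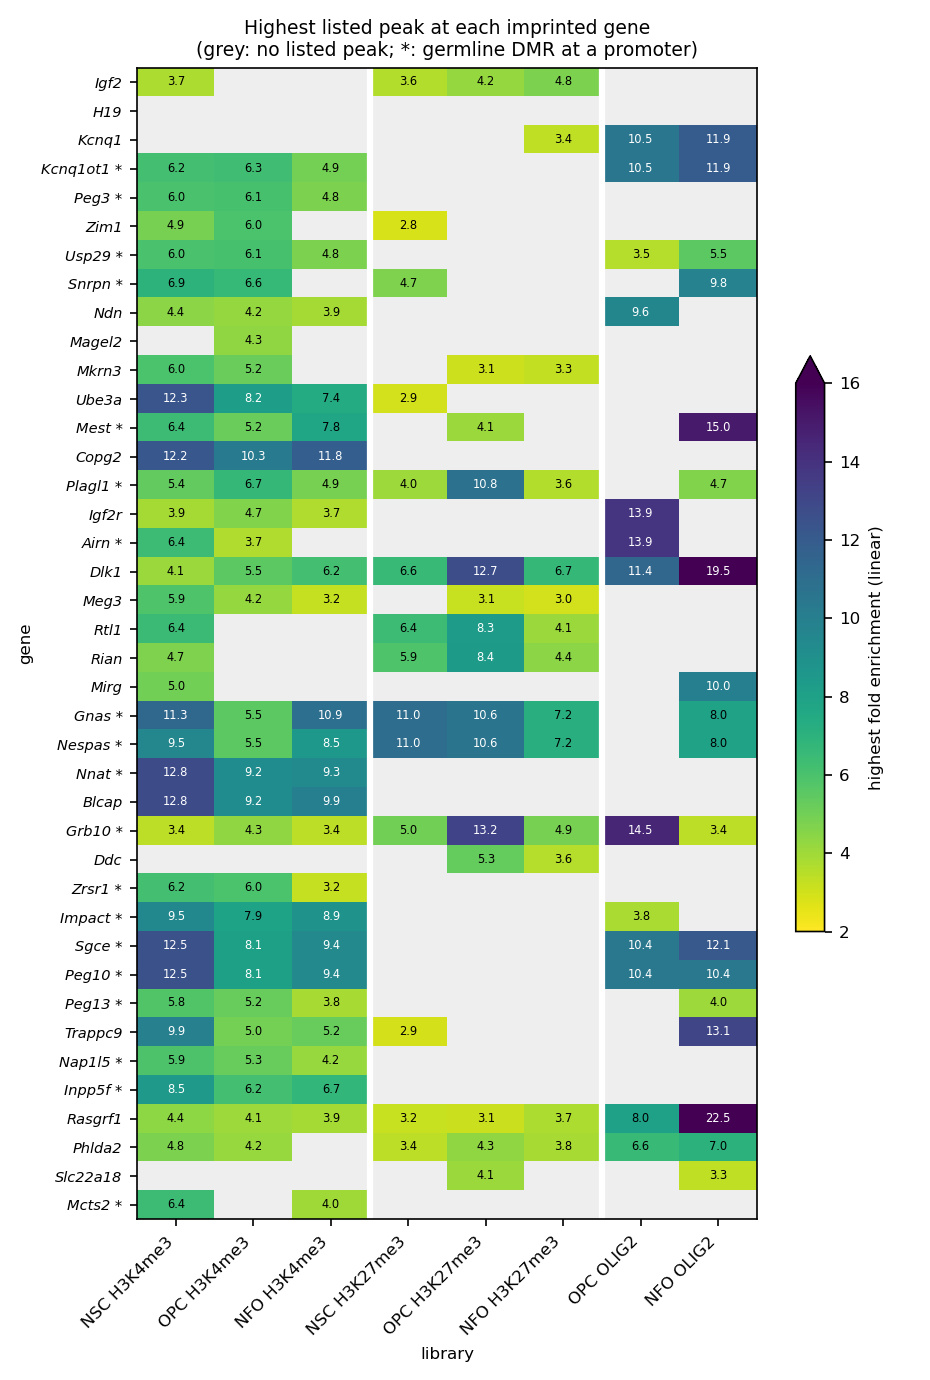
Rows are the 40 members in cluster order, columns the 8 libraries, and each cell gives the highest fold enrichment (linear colour scale, printed in the cell) of a listed peak under the counting rule, with grey where none was listed and an asterisk at members with a germline DMR at a promoter. K4 fills most of the first columns, K27 is limited to 20 members, and H19 is grey in all columns.

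K27 was listed at 20 of the 40 members at some stage, which was 6 of the 19 with a germline DMR at a promoter and 14 of the 21 without. Over all genes 23.0% had a K27 peak at some stage. Igf2, Plagl1, Dlk1, Rtl1, Rian, Gnas, Nespas, Grb10, Rasgrf1 and Phlda2 had it at all 3 stages, that is 10 members against 4.0% of all genes. Kcnq1, Zim1, Snrpn, Mkrn3, Ube3a, Mest, Meg3, Ddc, Trappc9 and Slc22a18 had it at some stages and not at others. Peaks of at least 1 kb were listed at 6, 7 and 8 members in the NSC, OPC and NFO lists (5.14%, 4.96% and 4.02% of all genes). They were listed at Igf2 and Grb10 at all 3 stages (1.99% of all genes).

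In the Igf2 and H19 cluster, Igf2, the fetal growth factor, had the widest K27 peak of any member. It spanned 6311 bp at fold 3.64 in NSCs (chromosome 7, 142660097 to 142666407). The widest in OPCs spanned 4774 bp at fold 3.92 and the widest in NFOs 5118 bp at fold 4.77, all 3 over an annotated TSS. OPCs and NFOs each had 3 narrower K27 peaks beside it. A K4 peak of 412 bp at fold 3.7 was listed in NSCs, apart from the K27 peak, and none in OPCs or NFOs. H19, the maternal noncoding RNA that shares enhancers with Igf2, had no peak within these limits in any of the 8 ChIP-Seq lists. The nearest to its TSS was an NSC K4 peak of 501 bp at a distance of 2174 bp, just outside the limit, at fold 4.32, and the nearest K27 peak was 34743 bp away, also in NSCs.

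In the Dlk1 and Meg3 cluster on chromosome 12, the paternal genes carried K27 and the maternal noncoding RNAs differed among themselves. Dlk1, a membrane protein related to Notch ligands, had K4 and K27 peaks that overlapped at all 3 stages, about 1.2 kb into the gene and over a downstream annotated TSS. The K4 peaks there were 240, 186 and 283 bp wide at folds of 4.08, 5.51 and 6.2 in NSCs, OPCs and NFOs, and the K27 peaks 412, 272 and 240 bp wide at folds of 6.56, 12.7 and 6.67. OPCs also had a K27 peak of 1365 bp over the Dlk1 start at fold 4.9, where no K4 peak was listed. Rtl1, a retrotransposon-derived gene, had a K4 peak of 210 bp at fold 6.43 that overlapped a K27 peak of 331 bp at fold 6.38 in NSCs. In OPCs and NFOs it had K27 alone, with a 1230 bp peak of the same start and end in both lists, at fold 7.36 in OPCs and 4.11 in NFOs.

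Meg3 had K4 over its promoter in OPCs (1437 bp, fold 4.21) and NFOs (653 bp, fold 3.21), and in NSCs a K4 peak of 247 bp at 1449 bp from a TSS. It had K27 peaks of 239 bp (OPCs) and 186 bp (NFOs), at folds of 3.15 and 2.98, that did not overlap K4. Rian, the noncoding RNA that hosts small nucleolar RNAs, had overlapping marks in NSCs, from a K4 peak of 162 bp at fold 4.7 and a K27 peak of 332 bp at fold 5.87. In OPCs and NFOs it had K27 alone, in peaks up to 2056 bp and 2684 bp wide. Mirg, which hosts microRNAs, had K4 peaks of 284 and 275 bp in NSCs and no histone peak in OPCs or NFOs.

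At Gnas, which encodes the stimulatory G protein alpha subunit, and the antisense RNA Nespas, K4 and K27 overlapped at all 3 stages at 1 place about 1 kb from annotated starts. The K4 peaks there were 317, 560 and 225 bp wide, at folds of 9.5, 3.1 and 4.93 in the NSC, OPC and NFO lists. The K27 peaks were 503, 322 and 424 bp wide, at folds of 11, 10.6 and 7.15, and the first of these rounded to percentile 100 of the genes with K27 in its library. Elsewhere in Gnas, K4 alone reached fold 11.3 over a 2795 bp peak in NSCs and 10.9 over a 283 bp peak in NFOs.

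Grb10, an adaptor that restrains growth factor signalling, carried several K27 peaks at every stage and K4 at low height. Over the gene and 5 kb on both sides K27 peaks covered 7983, 16189 and 10578 bp in the NSC, OPC and NFO lists, and those within 2 kb of a TSS reached 3539, 4374 and 2743 bp in width. The highest K27 folds were 4.98, 13.2 and 4.89, and the OPC value came from a peak of 505 bp. K4 folds reached 3.39, 4.32 and 3.4, at percentiles 2.53, 8.87 and 9.22 of their libraries, near the 5′ end in NSCs and OPCs but about 10 kb into the gene in NFOs. Ddc, the neighbouring gene for aromatic amino acid decarboxylase, had no K4 peak at any stage and a single narrow K27 peak at fold 5.3 in OPCs (186 bp) and at 3.56 in NFOs (310 bp).

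**Figure D4:**
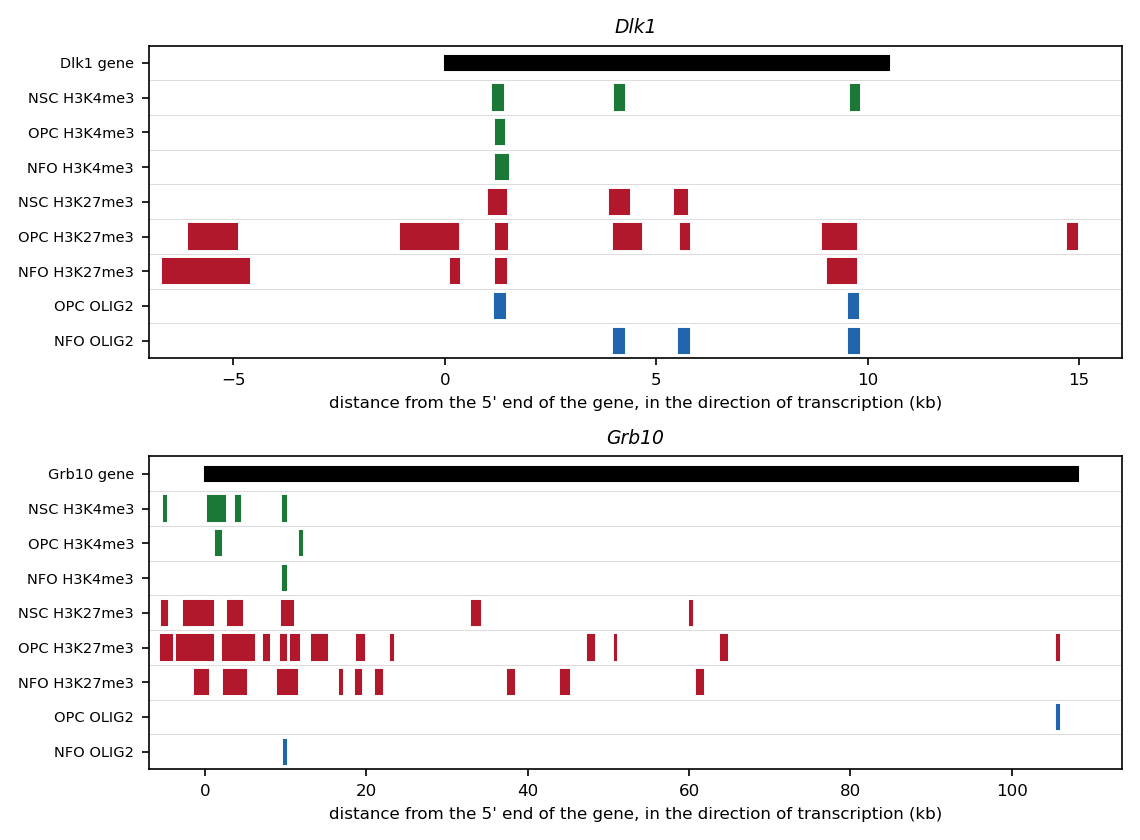
Boxes mark listed K4 (green), K27 (red) and OLIG2 (blue) peaks in each library (rows) around Dlk1 and Grb10, by distance from the 5′ end of the gene in the direction of transcription (x axis, kb), with the gene as a black bar. At Dlk1 narrow peaks of several lists stack near 1.2 kb, and at Grb10 K27 peaks are densest within about 20 kb of the start, with further peaks beyond.

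Plagl1, a zinc-finger transcription factor, had overlapping marks in NSCs and OPCs and both marks apart in NFOs. At 1 promoter, K4 peaks of 2307 bp in NSCs (fold 5.37) and 2062 bp in OPCs (fold 6.68) overlapped K27 peaks of 802 bp (fold 3.32) and 766 bp (fold 3.76). Its highest K27 fold, 10.8 in OPCs, came from a peak of 231 bp that overlapped a K4 peak of 857 bp near another TSS. Rasgrf1, a Ras activator, had overlapping marks at all 3 stages, with K4 folds of 4.36, 4.06 and 3.88 and K27 folds of 3.17, 3.14 and 3.71. Its K27 peaks spanned 1729, 362 and 2446 bp. Under the study's filter (fold above 3.5 and false discovery rate below 0.05) its marks overlapped in NFOs alone.

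In the Kcnq1 cluster, Kcnq1ot1 had K4 alone and its neighbours had K27 or little. Phlda2, a growth-limiting gene silenced on the paternal allele, had a K4 peak of 1018 bp in NSCs (fold 4.75) and 938 bp in OPCs (fold 4.18), lying within K27 peaks of 1485 bp (fold 3.37) and 2209 bp (fold 4.34). In NFOs it had K27 alone, at fold 3.81. The potassium channel gene Kcnq1 had no histone peak near a TSS in NSCs or OPCs and 2 K27 peaks in NFOs, at folds of 3.36 and 3.28. The transporter gene Slc22a18 had a K27 peak of 217 bp in OPCs (fold 4.12) and no other histone peak. In the Igf2r and Airn cluster on chromosome 17, Igf2r, the receptor that clears IGF2, had K4 alone, at folds of 3.91, 4.67 and 3.66, and Airn had K4 at 6.41 in NSCs and 3.69 in OPCs.

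In the Snrpn cluster, K4 was lost from the list at several genes in NFOs. Snrpn had K4 peaks of 2449 bp in NSCs (fold 6.93) and 2121 bp in OPCs (fold 6.62) and none in NFOs, where the nearest lay 23750 bp from a TSS. In NSCs a second K4 peak of 232 bp overlapped an end of a K27 peak of 2844 bp at fold 4.72. Mkrn3, a ring-finger gene, had K4 at 5.96 in NSCs and 5.18 in OPCs, with K27 listed apart from it in OPCs (1325 bp, fold 3.08) and alone in NFOs (458 bp, fold 3.28). Magel2 had 2 small K4 peaks in OPCs, of 196 and 218 bp, and none at the other stages. Ndn, a related MAGE family gene, had K4 at every stage, at folds of 4.43, 4.21 and 3.88, from peaks 1743 to 1779 bp from its GENCODE TSS. The NSC and OPC peaks lay inside the gene and the NFO peak upstream of it, so the place was not the same. A RefSeq promoter window of Ndn (62348027 to 62348326) also lies inside this gene. The NSC peak, from 62348312, overlapped that window, and the OPC peak, from 62348343, began just past it. Ube3a had a K27 peak of 793 bp at fold 2.94 in NSCs, apart from its K4 peak.

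Zim1, a zinc-finger gene next to Peg3, had K4 at 4.89 in NSCs and 5.95 in OPCs, and in NSCs a K27 peak of 405 bp at fold 2.83 overlapped a second, 209 bp K4 peak. Trappc9, a trafficking complex subunit, had K4 at every stage, at folds of 9.92, 4.95 and 5.23, and in NSCs a K27 peak of 1258 bp at fold 2.89 overlapped it. Mest had K4 at 6.42 in NSCs over a 4893 bp peak, within which lay the highest OPC and NFO peaks, at 5.19 and 7.79, and it had a K27 peak of 249 bp in OPCs at fold 4.12.

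Between NSCs and NFOs, 9 of the 35 members with K4 in NSCs (25.7%) had no K4 peak in NFOs: Igf2, Zim1, Snrpn, Mkrn3, Airn, Rtl1, Rian, Mirg and Phlda2. Among all genes 35.4% of those with K4 in NSCs had none in NFOs, so the share at members was below that of all genes. No member had K4 in NFOs without having it in NSCs. The combination of marks was the same at all 3 stages at 20 members and differed at 20. Of the 20 that stayed the same, 15 had K4 alone, 4 (Dlk1, Gnas, Nespas and, without the study's filter, Rasgrf1) had overlapping marks and H19 had none. Overlapping marks were listed at all 3 stages at 1.28% of all genes.

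At several members the overlap rested on narrow peaks that returned at the same position. In the NSC lists 7 of the 15 overlaps of K4 and K27 at members were formed by peaks both under 1000 bp wide, against 26.9% of the overlaps over all genes. In the OPC lists 4 of 8 were, against 21.3%, and in the NFO lists 2 of 4, against 41.5%. Where narrow peaks of at least 4 lists coincided, 5 places were found: 2 in Plagl1, and 1 each in Grb10, Dlk1 and Gnas/Nespas. The Dlk1 place, 457 bp on chromosome 12 (109453859 to 109454315), was in all 6 histone lists and in the OPC OLIG2 list. The Gnas/Nespas place of 786 bp was in all 6 histone lists. Between 7.25% and 22.9% of the bases of these places were marked as repeats in the reference. Whether K4, K27 and OLIG2 signal at these narrow places comes from the targets themselves was not tested. The bases common to the narrow peaks are printed for Gnas/Nespas, in an intron of Gnas and an exon of Nespas, and for Grb10, in an intron under a listed NFO OLIG2 peak, since narrow peaks of 6 and 4 lists meet there. Capitals mark E-boxes (CANNTG), the motif class that OLIG2 binds, which reads the same on both strands.
Gnas/Nespas, chr2:174286589-174286806, plus strand: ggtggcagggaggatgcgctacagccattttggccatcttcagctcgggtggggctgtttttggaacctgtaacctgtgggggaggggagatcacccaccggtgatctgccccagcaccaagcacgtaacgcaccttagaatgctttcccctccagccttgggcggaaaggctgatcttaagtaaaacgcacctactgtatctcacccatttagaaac
Grb10, chr11:12028716-12028860, plus strand: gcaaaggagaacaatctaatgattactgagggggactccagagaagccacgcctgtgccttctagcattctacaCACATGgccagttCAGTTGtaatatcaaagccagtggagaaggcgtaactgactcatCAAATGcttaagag
The Grb10 bases held 3 E-boxes and those of Gnas/Nespas 0. The OLIG2 peak at the Grb10 place had a fold of 3.42 and a false discovery rate of 0.122. It did not pass the study's filter for OLIG2 peaks. In H3K27me3 peaks of at least 1 kb, which leaves these places out except where a broad peak covered them, K27 was listed at 6, 7 and 8 members at the NSC, OPC and NFO stages, against 5.14%, 4.96% and 4.02% of all genes. The marks then overlapped at 5, 1 and 2 members, against 3.29%, 2.17% and 1.45% of all genes, so that the OPC count was near the share over all genes.

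OLIG2 peaks were listed at 22 of the 40 members (30.1% of all genes), 9 in both OPCs and NFOs (7.72% of all genes), 4 in OPCs alone (Ndn, Igf2r, Airn and Impact) and 9 in NFOs alone (Snrpn, Mest, Plagl1, Mirg, Gnas, Nespas, Peg13, Trappc9 and Slc22a18). The NFO list was the larger over all genes too. It held 16911 peaks against 7384 in OPCs, and 24.1% of all genes had a peak in it against 13.8% in OPCs. Long genes hold more peaks, so pairs of a gene and an OLIG2 peak were set against length, a shared peak counting once for each gene. Per 100 kb of gene and upstream sequence the members had 0.591 pairs in OPCs and 1.01 in NFOs, against 0.396 and 0.826 for all genes. The 14 distinct OPC peaks had a median fold of 9.3, against 8.03 over all OPC peaks, and the 25 NFO peaks 7.52 against 8.12. In OPCs 5 of the 14 peaks and in NFOs 2 of the 25 lay on a K27 peak of the same stage, which held for 10.5% and 2.44% of all OLIG2 peaks. On a K4 peak lay 3 of 14 and 5 of 25, against 12.6% and 8.23% of all OLIG2 peaks.

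At 5 places an OPC and an NFO OLIG2 peak overlapped, and these are the places where OLIG2 was listed in separate libraries. Of the OLIG2 peaks at members 5 of 14 in OPCs and 5 of 25 in NFOs overlapped a peak of the other stage, against 14.3% and 6.26% of all OLIG2 peaks. Rasgrf1 had its place in an intron, at fold 8.0 in OPCs and 22.5 in NFOs, the latter the highest OLIG2 fold at any member. The place at Kcnq1 and Kcnq1ot1, in an intron of the former and an exon of the latter, had folds of 10.5 and 11.9. The place at Sgce and Peg10, in an intron of Sgce and upstream of Peg10, had 10.4 in both libraries and lay on the K4 peak at both stages. Phlda2 had its place upstream, at 6.59 and 7.01, and Dlk1 at 6.43 and 7.52 in a noncoding part of an exon. The bases common to the OPC and NFO peaks are printed for Rasgrf1, Kcnq1/Kcnq1ot1 and Phlda2 in the GRCm38 reference, with E-boxes in capitals.
Rasgrf1, chr9:89973965-89974189, plus strand: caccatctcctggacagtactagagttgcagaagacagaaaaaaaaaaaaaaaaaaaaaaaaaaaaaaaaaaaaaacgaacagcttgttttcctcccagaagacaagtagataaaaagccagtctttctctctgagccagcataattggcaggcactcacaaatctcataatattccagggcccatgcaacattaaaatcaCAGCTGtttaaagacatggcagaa
Kcnq1/Kcnq1ot1, chr7:143273757-143273937, plus strand: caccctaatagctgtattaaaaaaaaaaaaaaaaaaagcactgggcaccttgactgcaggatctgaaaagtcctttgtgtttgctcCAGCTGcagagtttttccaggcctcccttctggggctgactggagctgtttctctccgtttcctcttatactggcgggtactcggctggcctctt
Phlda2, chr7:143505570-143505787, plus strand: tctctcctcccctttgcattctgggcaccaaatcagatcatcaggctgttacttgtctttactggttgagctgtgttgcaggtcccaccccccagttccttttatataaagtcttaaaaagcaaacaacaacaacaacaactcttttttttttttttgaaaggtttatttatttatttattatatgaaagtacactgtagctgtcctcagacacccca
Rasgrf1 and Kcnq1/Kcnq1ot1 each held 1 E-box in these bases, in both cases CAGCTG, and Phlda2 held 0. Over whole peaks, an E-box was present in 12 of 14 member peaks in OPCs (85.7%) and 17 of 25 in NFOs (68.0%), against 70.4% and 69.3% of all OLIG2 peaks. CAGCTG was present in 4 of 14 and 7 of 25 member peaks, or 28.6% and 28.0%, against 13.6% and 10.1% of all. Each of the 3 printed places also held an unbroken run of at least 12 A, or of at least 12 T. Such a run was present in 71.4% of the OPC and 84.0% of the NFO member peaks and in 67.5% and 65.8% of all OLIG2 peaks. Among all OLIG2 peaks that overlapped a peak of the other stage, 1059 in each list, 79.1% held one.

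The remaining OLIG2 peaks at members were listed at a single stage. In OPCs Grb10 had the highest, at fold 14.5 in a noncoding part of an exon, and on a K27 peak. Igf2r and Airn shared an intronic peak at 13.9, and Airn had another at 9.36. Ndn had a peak in its coding exon at 9.56, on K4. Sgce had a further OPC peak at 9.25 and Kcnq1 at 6.81, while those of Usp29 (3.54) and Impact (3.78) were under the fold of 5 that the study's methods require. Dlk1 held 5 OLIG2 peaks in the 2 libraries together. Its OPC peak at 11.4 lay on the narrow K4 and K27 place, and its NFO peaks at 8.65 and 19.5, about 4 and 5.5 kb into the gene, lay where narrow NSC and OPC K27 peaks were listed.

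In NFOs Mest had an intronic peak at 15.0, Trappc9 had peaks at 13.1, 7.05 and 5.75, and Sgce had further peaks at 12.1 and 10.5. Mirg had a peak at 9.96, Snrpn at 9.77, Gnas and Nespas a shared one at 7.96, and Usp29 at 5.53. These were intronic. The NFO peaks of Plagl1 (4.65), Peg13 (4.04), Grb10 (3.42) and Slc22a18 (3.32), and further peaks of Kcnq1, Sgce, Usp29 and Phlda2, were under a fold of 5. The false discovery rate (FDR) of the NFO list reached 0.122 at Grb10, 0.139 at Slc22a18 and 0.283 at the weaker Phlda2 peak. With a fold above 5 and an FDR below 0.05, OLIG2 was listed at 11 members in OPCs (12.5% of all genes) and 14 in NFOs (21.2% of all genes).

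**Figure D5:**
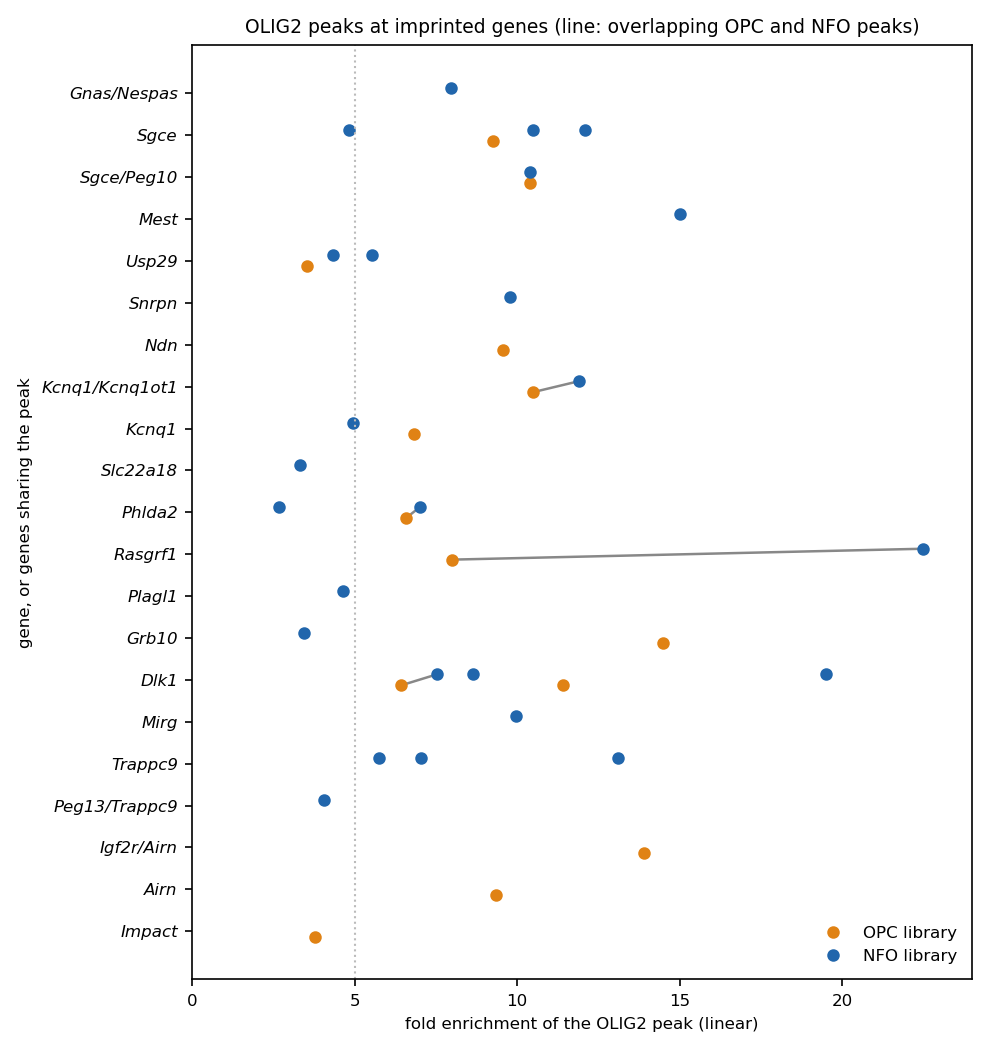
Each point is an OLIG2 peak at a member, placed by its fold enrichment (x axis, linear) on the row of the gene or genes that hold it, in orange for the OPC and blue for the NFO library, with lines joining overlapping peaks and a dotted line at the fold of 5. Points run from 2.67 at Phlda2 to 22.5 at Rasgrf1 in NFOs and from 3.54 at Usp29 to 14.5 at Grb10 in OPCs.

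A further 34 imprinted genes outside the member list had K4 at 23, 24 and 12 genes in the NSC, OPC and NFO lists. The shares of all genes with K4 were 52.2%, 48.6% and 35.1%. K27 was listed at 10, 15 and 12 of the 34 (13.4%, 14.8% and 8.5% of all genes). Overlapping marks were listed at 6, 5 and 2 (7.19%, 4.64% and 2.63% of all genes). OLIG2 was listed at 9 in OPCs and 16 in NFOs (13.8% and 24.1% of all genes). Members had K4 in NFOs in 65.0% of cases and these genes in 35.3%, near the 35.1% of all genes. The difference between members and these genes was not tested. The genes named next were chosen after their values were seen. Klf14, a transcription factor gene near Mest, had K27 at 7.58, 9.18 and 5.29 and K4 at 9.14, 3.13 and 9.06, with overlapping marks in NSCs. Sfmbt2, itself a Polycomb protein, had K27 at 7.92, 7.31 and 6.21 with an OLIG2 peak at fold 28.1 in NFOs. It also had K4 at 9.59, 9.56 and 14.4, and its marks overlapped at every stage. Cdkn1c, the growth inhibitor in the Kcnq1 cluster, had K4 at 3.76 and 4.45 in NSCs and OPCs and K27 at 4.52 in OPCs. The 10 factors that keep imprints had K4 at 9, 10 and 8 genes in the NSC, OPC and NFO lists (52.2%, 48.6% and 35.1% of all genes). They had K27 at 5, 1 and 2 (13.4%, 14.8% and 8.5% of all genes). In NFOs Dnmt1, the maintenance DNA methyltransferase, and the chromatin remodeller Atrx had no K4 peak. Zfp57 had K4 at folds of 7.85, 5.75 and 3.96, and Trim28, the corepressor it recruits, at 9.15, 7.18 and 21.5.

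RIP-Seq, which sequences RNA that comes down with a protein, gave no listed site at any member. The OLIG2 list held sites in 1961 transcripts and the IgG control list in 1971, and 0 of the 40 members overlapped a site in either. Over all genes 2.81% overlapped a site of the OLIG2 list and 2.82% of the IgG list, so a count of 0 among 40 is near the background. The labels call the RIP-Seq cells NFOs and the study's methods NSCs, so no stage is given to these lists.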

How the data were processed

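ChIP-Seq measured chromatin at the 3 stages and RIP-Seq the RNA bound by OLIG2, with 1 library for each target. Libraries were grouped by their titles, since the antibody field names the other histone mark. Per the labels and the study's methods, the authors mapped reads to mm10 with Bowtie2, called broad K4 and K27 peaks with MACS2, and called OLIG2 peaks with SPP. The deposited lists give, for each peak, a fold enrichment (a linear ratio) and −log10 of the FDR computed by the authors' peak callers, and for histone marks also −log10 of the p-value. The deposited RIP-Seq lists (ASPeak) give a tag count per site, a p-value, and an RPKM of the transcript that was the same in both lists for all 1878 shared transcripts. The lists do not give library depth, so no interval or scaling was possible. The 3 input libraries were not used here.

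Genes were the protein-coding and lncRNA genes of GENCODE M21 on GRCm38, and no peak lay beyond a chromosome end. All listed peaks were used in the main counts, also those under the study's filter (FDR below 0.05 and fold above 3.5 for histone marks or 5 for OLIG2), which was an alternative. Others were a stricter filter, 1 kb from a TSS, 1 TSS per gene, K27 peaks of at least 1 kb, overlaps of at least 200 bp instead of 1 bp, and 2 kb upstream for OLIG2. Named with values were the members with K27, with OLIG2, with marks that differed between stages or with none, and the highest and lowest of the rest. The members and gene lists were chosen with earlier results of these data known. Peak assignment was tested on simulated data. Sequences came from GRCm38 and RefSeq, and some items are not reported here. Python 3.11.15, pandas 2.3.3 and pysam 0.24.0 were used.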

Additional observations from a re-analysis of the deposited data

How the results depend on the processing

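Shares of all genes under the same setting follow each count in brackets. The study's filter (FDR below 0.05 and fold above 3.5) left K27 at 9 members in NSCs (8.48%) and overlapping marks at 6 there (4.35%). Under the stricter filter (fold above 5, for OLIG2 above 10) K4 was left at 13 members in NFOs (17.7%) and at 11 at all 3 stages (16.3%). K27 was left at 5 members in NSCs (2.19%), 8 in OPCs (6.49%), 3 in NFOs (2.35%) and 3 at all 3 stages (0.916%). Overlapping marks were left at 3 (1.16%), 3 (1.68%) and 1 (0.938%), and OLIG2 at 8 in OPCs (5.32%) and 8 in NFOs (10.5%). Within 1 kb of a TSS the marks overlapped at 3 members in NFOs (1.88%). With 1 TSS per gene K27 was listed at 9 members in NSCs (9.95%) and overlapping marks at 2 in NFOs (2.21%). With K27 peaks of at least 1 kb, K27 was left at 6 (5.14%), 7 (4.96%) and 8 (4.02%) members and at 2 at all 3 stages (1.99%), and overlapping marks at 5 (3.29%), 1 (2.17%) and 2 (1.45%). These alternatives use fewer or narrower windows or peaks by construction. All other counts stayed within 1.5 times their value, and requiring 200 bp of overlap or 2 kb upstream moved none past that. No paired analysis was possible because each group holds 1 library. With 1 library, and with depth unknown, a peak missing from a list may lie under the caller's limit.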
